A study of Mus musculus with 16 samples.

Results

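Ccl3, Ccl4, Ccl5, Ccl6 and Ccl9 encode CC chemokines, and they are 5 of the 46078 genes counted in hematopoietic stem cells (HSCs) sorted by their level of the integrin MAC-1. Ccl4 was chosen by its own values here. Its difference between MAC-1low and MAC-1- HSCs had differed between 4 weeks after transplantation and steady state (SS) in an earlier look at the same samples, and the other 4 genes were set beside it as members of its family. The values of Ccl4 in these 4 populations are therefore given as a description, with no test.

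All samples were LSK SLAM HSCs of WT B6.SJL mice, that is, bone marrow cells without lineage markers that were cKit+, Sca1+, CD48- and CD150+. SS HSCs came from untreated mice and were sorted as MAC-1- (3 samples) or MAC-1low (3 samples). The remaining HSCs were taken 4 weeks after 8000 LSK cells had been transplanted into recipients irradiated with 900 cGy, and were sorted as MAC-1- (3 samples), MAC-1low (4 samples) or MAC-1+ (3 samples). In the transplantations of the study the donor cells carried another CD45 allele than the recipients, so that cells left from the host could be gated away. RNA from few cells per sample was amplified with SMART-Seq v4, which copies whole transcripts and has no molecular identifiers. Nothing in the sources states that the replicates of a population came from separate mice, and the p-values below measure the spread between these samples, which may be technical.

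CC chemokines are small secreted proteins with adjacent cysteines near their start that bind receptors of the G protein-coupled family and draw monocytes, T cells, NK cells and other leukocytes. Ccl3 and Ccl4 are macrophage inflammatory proteins that leukocytes secrete upon activation, and the protein of Ccl3 is also known as an inhibitor of the cycling of hematopoietic progenitors. Ccl5 encodes RANTES, a product of T cells, NK cells and platelets, and Ccl6 and Ccl9 are chemokines of myeloid cells found in rodents.

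The 5 genes lie within 138.9 kb of chromosome 11, in GRCm38 coordinates of the GENCODE M21 annotation to which the identifiers of the table were matched. The order is Ccl5 (ENSMUSG00000035042, 83525778 to 83530518), Ccl9 (ENSMUSG00000019122, 83572919 to 83578636), Ccl6 (ENSMUSG00000018927, 83587882 to 83593087), Ccl3 (ENSMUSG00000000982, 83647844 to 83649355) and Ccl4 (ENSMUSG00000018930, 83662584 to 83664683). Ccl4 is transcribed from the plus strand and the other 4 genes from the minus strand. The gap between Ccl3 and Ccl4 is 13.2 kb and that between Ccl9 and Ccl6 is 9.2 kb. Ccl6 overlaps E230016K23Rik, a transcript of the plus strand, and whether the counting used the strand is not given in the sources used here, so the reads of these 2 genes may not have been told apart.

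The members are relatives, and reads of one could only be counted on another where long stretches are identical. The coding sequences of Ccl3 and Ccl4, the closest pair, are both 279 bases long, and in their alignment 191 of 285 columns were identical (67.0%). The longest run without a difference between any transcripts of Ccl3 and Ccl4 was 9 bases. Ccl6 and Ccl9 were identical in 64.6% of aligned columns of their coding sequences, and the longest run these shared, 23 bases, is given here in both genes because it is the longest stretch of coding sequence common to any members, 5′ to 3′ on the coding strand and from the GENCODE M21 transcripts. It lies at bases 225 to 247 of the Ccl6 and 246 to 268 of the Ccl9 coding sequence.
Ccl6: gccgggcatcatctttatcagca
Ccl9: gccgggcatcatctttatcagca
Anywhere in their transcripts, the longest shared run of Ccl6 and Ccl9 was 25 bases. No pair of members shared a run of 31 bases (0 runs), so each count below can be read as that of its own gene as far as reads of that length or longer go.

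Per sample, 13781278 to 28580658 reads were counted on genes, and 14533 to 17576 genes were detected. Where a sample shows 0, up to 3 counts remain possible from counting error alone, a floor of 0.112 to 0.22 CPM. CPM are counts scaled for library size with TMM factors. A gene is called at an adjusted p below 0.1 (edgeR quasi-likelihood test, Benjamini-Hochberg over the 13661 genes that passed the filter on low counts). DESeq2, the tool of the study, and limma-voom were run beside it. On counts simulated with the spread of these samples, most of the genes DESeq2 called had not been changed. Its low adjusted p of members at 0 in many samples may therefore be false calls. The simulated spread was that fitted by edgeR, and few genes were changed, in 1 population. The share of false calls in the real data is not known from it. All 5 members passed the filter on low counts, Ccl6 with 20 or more counts in only 3 samples. Of the MAC-1 subunits, Itgam (CD11b) reached 3.80 to 30.0 CPM in the 4 week MAC-1+ samples and at most 4.36 CPM elsewhere (adjusted p = 0.4 in edgeR against 4 week MAC-1-), and Itgb2 (CD18) had its highest mean in the 4 week MAC-1- samples, at 26.8 CPM. All 9 HSC surface markers were detected in every population. At 4 weeks, MAC-1+ HSCs were called higher than MAC-1- HSCs in Kit, Ly6a and Procr, with Procr at 83.6 ± 22.0 CPM (SD, n = 3) against 7.03 ± 1.46 CPM (SD, n = 3). Cd48, whose protein the sort excludes, reached 98.3 ± 31.7 CPM (SD, n = 3) in the 4 week MAC-1- samples.

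Ccl4 was by far the most abundant of the 5 genes and was counted in 16 of 16 samples. Its mean over all samples was 270 CPM per kb of exon, against 12.0 for Ccl3, 5.32 for Ccl5, 1.82 for Ccl9 and 1.00 for Ccl6. By CPM, 92.1% of the genes tested had a lower mean than Ccl4. It made up between 65.2% and 100% of the summed CPM of the members in a sample. The fitted coefficient of variation between replicates was 0.323 for Ccl4, while it was 1.64 for Ccl3, 2.14 for Ccl9, 2.30 for Ccl5 and 2.87 for Ccl6, with a common value of 1.13.

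In SS MAC-1- HSCs, Ccl4 was at 277, 212 and 307 CPM, from 3777, 4037 and 5987 counts. SS MAC-1low HSCs held 286, 108 and 172 CPM, so the SS populations overlapped. The 4 week MAC-1- samples were the lowest of all, at 34.3, 32.1 and 28.6 CPM from 546, 846 and 473 counts, a narrow range that no sample of another population entered. The 4 week MAC-1low samples lay at 128, 158, 99.5 and 153 CPM, above every 4 week MAC-1- sample and below every SS MAC-1- sample. In 4 week MAC-1+ HSCs Ccl4 reached 203, 395 and 263 CPM. In bulk RNA, fewer cells with the transcript and less transcript per cell cannot be told apart.

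**Figure D1:**
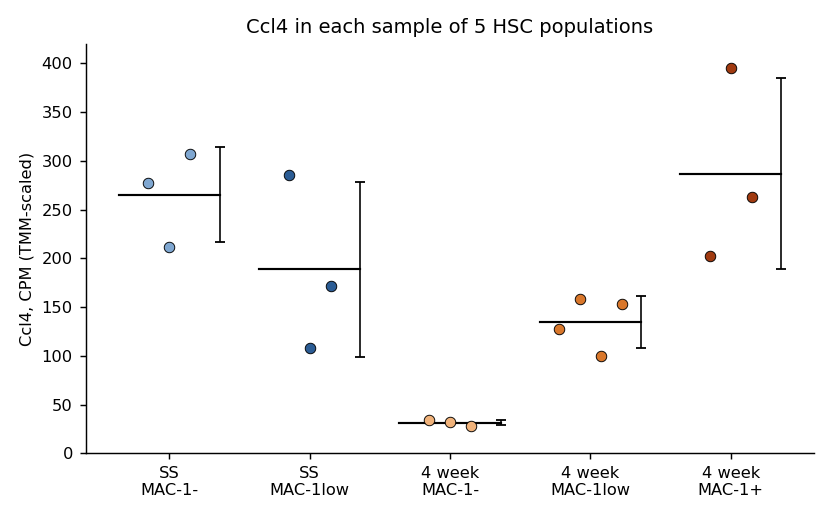
Ccl4 in CPM (vertical axis, from 0) in every sample of the 5 populations (horizontal axis). Points are samples, lines are means and bars show 1 SD (n = 3, or 4 for 4 week MAC-1low). The 3 samples of 4 week MAC-1- HSCs sit between 28.6 and 34.3 CPM, below all others.

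From high to low, the means were 287 ± 98.2 CPM (SD, n = 3) in 4 week MAC-1+, 265 ± 48.8 (SD, n = 3) in SS MAC-1-, 189 ± 90.2 (SD, n = 3) in SS MAC-1low, 135 ± 26.7 (SD, n = 4) in 4 week MAC-1low and, lowest, 31.6 ± 2.88 (SD, n = 3) among MAC-1- HSCs at 4 weeks. Each of the first 3 overlapped with the population that follows it in this order. The last step was without overlap, as for 10.8% of all genes tested. Ccl4 was 4.26 times as high in 4 week MAC-1low as in 4 week MAC-1- HSCs, and both had part in its choice.

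The rule that chose Ccl4 used the SS and the 4 week MAC-1- and MAC-1low samples, and its values among them are these. At 4 weeks, the log2 fold change of MAC-1low against MAC-1- was 2.09 (SE 0.33), and at SS it was -0.49 (SE 0.33), which gives a difference of 2.58 (SE 0.47) between the time points. Between the time points Ccl4 differed by -3.07 (SE 0.36) in MAC-1- HSCs, without overlap, as for 16.6% of all genes tested. In MAC-1low HSCs it differed by -0.49 (SE 0.31), with overlap. Across both, 4 week MAC-1- against SS MAC-1low was -2.58 (SE 0.35) and 4 week MAC-1low against SS MAC-1- was -0.98 (SE 0.31). Both were without overlap, as for 17.7% and 11.1% of all genes tested. SS MAC-1low replicate 1, the highest of its population, moved the values that rest on it: without it, the SS log2 fold change was -0.94 and the change of MAC-1low HSCs between the time points was -0.06.

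The 4 week MAC-1+ samples took no part in choosing Ccl4, although the samples they are compared with did. The first comparison asks how HSCs with the most MAC-1 differ from those without it after transplantation. At 4 weeks, Ccl4 was 9.07 times as high in MAC-1+ as in MAC-1- HSCs, a log2 fold change of 3.18 (SE 0.36; adjusted p = 0.000395, edgeR). The low values of the MAC-1- samples had part in the choice of the gene, which favors a difference from them, and this p is not independent of that choice. Its samples did not overlap, as was the case for 21.7% of all genes tested. With any 1 sample left out, the adjusted p in edgeR ran from 0.000257 to 0.0054. Over the other alternatives it ran from 6.02e-17 to 0.0283. Of the 5 members, 1 was called in this comparison, the chosen gene Ccl4 itself, against 3.25% of all genes. An unadjusted p below 0.05 was seen for 4 of 5, Ccl4 among them, against 13.4% of all genes. Both counts include Ccl4 and are not independent of its choice, and no other member was called.

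Against 4 week MAC-1low HSCs, Ccl4 was 2.13 times as high in MAC-1+ HSCs, again without overlap (8.23% of genes), but it was not called (log2 fold change 1.09, SE 0.31; adjusted p = 0.535 in edgeR, 0.0338 in DESeq2, 0.257 in limma-voom). In this comparison 0 of 5 members and 0% of all genes were called in edgeR. An unadjusted p below 0.05 was seen for 1 of 5 members, again Ccl4 itself, and for 6.85% of all genes. DESeq2 called 1 member and limma-voom 0. Against SS MAC-1- HSCs the log2 fold change was 0.11 (SE 0.33; adjusted p = 0.95, edgeR), with overlap. Leaving out MAC-1+ replicate 2 turned it to -0.21. Against SS MAC-1low HSCs it was 0.60 (SE 0.33; adjusted p = 0.486, edgeR), also with overlap. In these 2 comparisons 0 of 5 members were called and 0 had an unadjusted p below 0.05, where 2.36% and 1.42% of all genes were called and 14% and 12.1% had such a p. DESeq2 called 2 members in the first and 0 in the second, and limma-voom called 0 in either.

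**Figure D2:**
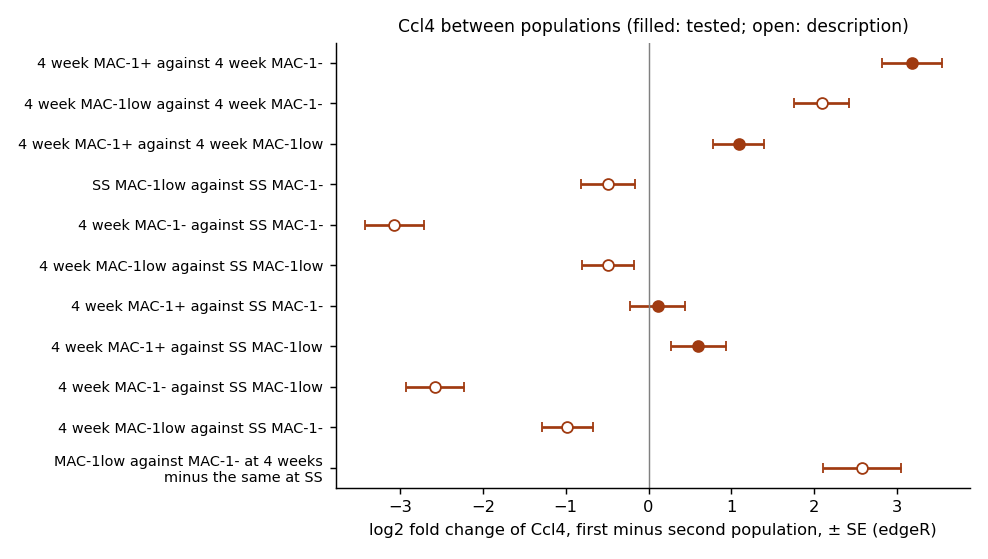
Log2 fold change of Ccl4 (horizontal axis, first minus second population, with the SE of the edgeR fit) in 10 comparisons of populations and in the difference between time points at the bottom (vertical axis). Filled points were tested, open points use only samples that chose Ccl4; the comparisons of 4 week MAC-1- with other populations lie farthest from 0.

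Neutrophil transcripts differed between the MAC-1+ samples. The summed CPM of 15 neutrophil markers was 257 in 4 week MAC-1+ replicate 1, 1146 in replicate 2 and 7775 in replicate 3, and between 197 and 396 in the SS and the 4 week MAC-1low samples. The 4 week MAC-1- samples had the lowest sums, 90.5 to 153 CPM, so that this list was low where Ccl4 was low. At 4 weeks S100a8, S100a9 and Prtn3 were called higher in MAC-1+ than MAC-1- HSCs, 3 of the 9 markers tested, and Ngp was called higher in MAC-1+ than SS MAC-1- HSCs. Granule genes that were not called in the first of these comparisons had higher means in MAC-1+ HSCs as well, with wide spread. Camp was at 351 (SD 497) against 2.27 CPM and Ngp at 209 (SD 223) against 3.43 CPM. Elane was at 65.6 (SD 114) against 0 CPM and Mpo at 53.2 (SD 92.2) against 0.629 CPM, each above 0 in only 1 MAC-1+ sample. Ly6g, which defines mature neutrophils, had means of at most 0.0341 CPM. With replicate 1 standing alone for MAC-1+ HSCs, a choice made after the sums were seen, the log2 fold change of Ccl4 against 4 week MAC-1- HSCs was 2.68 (adjusted p = 0.0195, edgeR), where the lone sample is assumed to vary like those of the other populations.

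Monocyte and macrophage markers, mostly Lyz2, summed to 417 to 619 CPM in 4 week MAC-1- HSCs and to 652 to 887 CPM in all other samples, again low where Ccl4 was low. Ms4a6c was called higher in MAC-1+ than MAC-1- HSCs at 4 weeks, with 226 against 49.1 CPM, and Cd68 had means of 31.6 and 3.18 CPM there without a call. Ly6c2 had a mean of 36.1 CPM (SD 62.4) in MAC-1+ HSCs and at most 0.0516 CPM elsewhere. The means of Csf1r and Cd14 did not exceed 0.0527 CPM in any population. The part of neutrophil and monocyte transcripts in the level of Ccl4 was not tested.

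A list that was high where Ccl4 was low was that of megakaryocytes and platelets. The 13 megakaryocyte and platelet markers summed to 4426 to 7017 CPM in 4 week MAC-1- HSCs and to 377 to 1483 CPM elsewhere, with Pf4, Itga2b and Gp1bb called lower in MAC-1+ than MAC-1- HSCs at 4 weeks. The 10 NK cell markers summed to 323 to 642 CPM in 4 week MAC-1- HSCs, nearly all of it Nkg7, to 164 to 379 CPM in the SS and 4 week MAC-1low samples, with overlap, and to 16.2 to 176 CPM in 4 week MAC-1+ HSCs, with Ncr1 at 0 in all samples. Of the remaining lists, Lat (T cells) was called lower and Hbb-bt (erythroblasts) higher in MAC-1+ than MAC-1- HSCs at 4 weeks. Flt3, on the dendritic cell list, was called higher in 4 week MAC-1+ than SS MAC-1- HSCs. The study counts Flt3 among genes of lymphoid and myeloid priming. Lat, Hbb-bt and Flt3 were each the only gene called, of 2, 7 and 5 tested on their lists. The erythroblast list had a median log2 fold change of 2.35 there, but Klf1 went the other way (0.646 against 8.35 CPM). For the dendritic cell list the median was -0.06. The part of these lists in the level of Ccl4 was not tested.

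**Figure D3:**
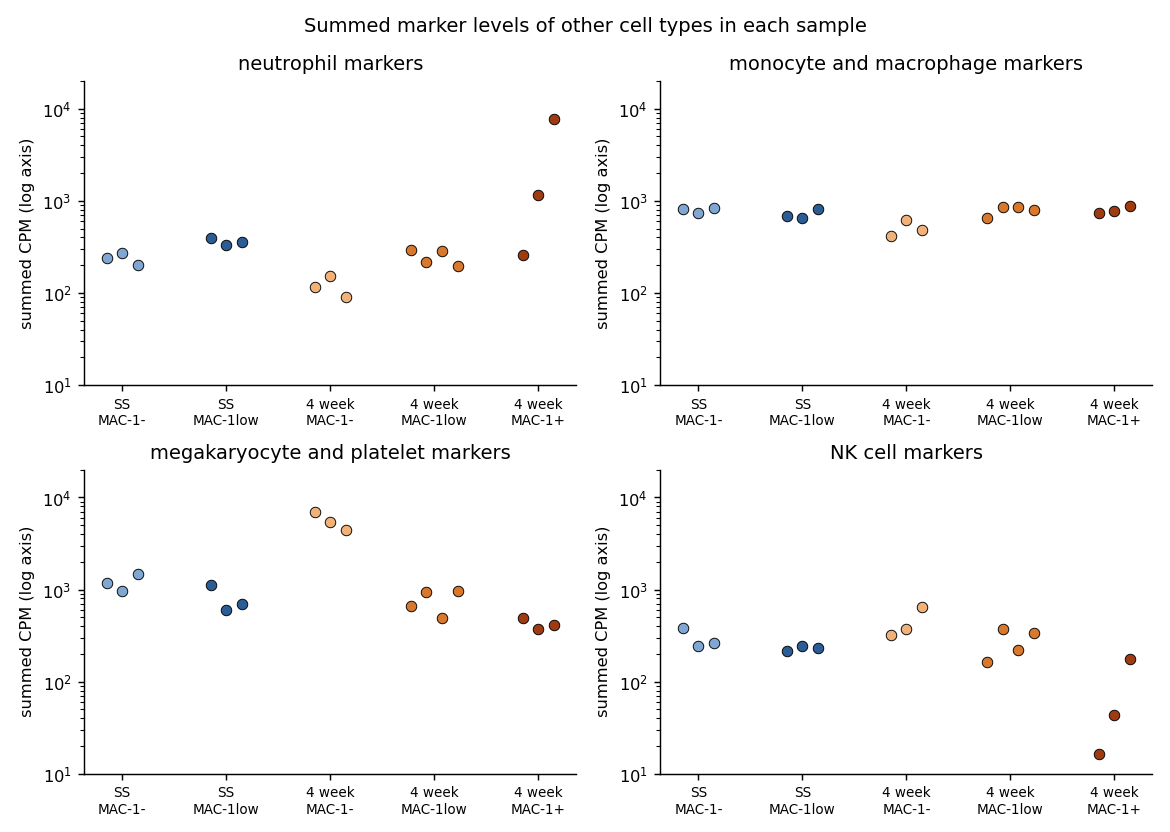
Summed CPM of the neutrophil, monocyte and macrophage, megakaryocyte and platelet, and NK cell marker lists (vertical axis, log scale) in every sample, by population (horizontal axis). Neutrophil sums reach 1146 and 7775 CPM in 2 of the 3 MAC-1+ samples, and megakaryocyte sums lie between 4426 and 7017 CPM in the 3 samples of 4 week MAC-1- HSCs, above all others.

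Ccl3, the neighbor of Ccl4, was counted in 10 samples. In 4 week MAC-1+ HSCs it held 416, 329 and 531 counts, or 19.8, 20.7 and 21 CPM. All 3 samples of 4 week MAC-1- HSCs were at 0 counts. The 4 week MAC-1low samples held 78, 113, 0 and 174 counts, at most 6.52 CPM. In SS MAC-1- HSCs it held 78, 0 and 100 counts, and in SS MAC-1low HSCs 851, 257 and 0 counts, the first of which, at 44.4 CPM, was the highest of all. Ccl3 was thus even among MAC-1+ samples and uneven in both SS populations.

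Against the floor, Ccl3 was at least 127-fold higher in MAC-1+ than MAC-1- HSCs after 4 weeks, without overlap. It missed the threshold in edgeR (adjusted p = 0.121) and passed it in DESeq2 (adjusted p = 0.000241) and limma-voom (adjusted p = 0.0166). With 1 sample left out, the edgeR value ran from 0.0731 to 0.315, and it fell below the threshold without SS MAC-1- replicate 2, without SS MAC-1low replicate 3 or without 4 week MAC-1low replicate 3. It also lay above every 4 week MAC-1low and every SS MAC-1- sample, by 4.97 and 5.66 times in the means, with adjusted p of 0.98 and 0.69 in edgeR. Samples did not overlap for 8.23% and 17.0% of all genes in these comparisons. Against the floor again, Ccl3 in 4 week MAC-1- HSCs was at least 22.5-fold lower than in SS MAC-1- (adjusted p = 0.371), at least 25.6-fold lower than in 4 week MAC-1low (adjusted p = 0.508) and at least 122-fold lower than in SS MAC-1low HSCs (adjusted p = 0.258, all edgeR), each with overlap because 1 sample of the other population was also at 0. The last of these bounds was 44.6-fold without SS MAC-1low replicate 1.

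Ccl5 was counted in 8 samples, and its pattern was another one. All 3 SS MAC-1- samples were at 0, whereas SS MAC-1low HSCs held 239, 159 and 96 counts, or 12.5, 8.89 and 4.95 CPM. At 4 weeks it was patchy, with 0, 451 and 0 counts in MAC-1-, 461, 0, 137 and 0 in MAC-1low and 25, 28 and 0 in MAC-1+ HSCs. The single high 4 week MAC-1- sample, at 17.1 CPM, exceeded every SS sample.

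At SS, Ccl5 was at least 49.5-fold higher in MAC-1low than in MAC-1- HSCs, without overlap, as for 11.3% of all genes. The adjusted p was 0.521 in edgeR, 0.592 in limma-voom and 4.8e-10 in DESeq2. Of the 4 members tested in this comparison 0 were called in edgeR and 1 had an unadjusted p below 0.05 (9.36% of all genes), where 0.0146% of all genes were called. DESeq2 called 2 of them and limma-voom 0. In 4 week MAC-1+ HSCs Ccl5 lay below every SS MAC-1low sample (0.982 against 8.77 CPM; adjusted p = 0.777, edgeR), a comparison in which 16.3% of genes did not overlap. The difference of the MAC-1low against MAC-1- contrast between 4 weeks and SS was -9.80 on the log2 scale (SE 4.50; adjusted p = 0.565 in edgeR, 0.675 in limma-voom, 3.67e-05 in DESeq2). It rested on 4 week MAC-1- replicate 2, without which it was 0.01. In this contrast 0 of the 4 members tested were called in edgeR, 1 had an unadjusted p below 0.05 (8.73% of all genes), 0.0586% of all genes were called, DESeq2 called 1 member and limma-voom 0.

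Ccl6 and Ccl9, next to each other on the minus strand, had the lowest levels per kb. Ccl6 held 178 and 280 counts in 4 week MAC-1low replicates 3 and 4 and 192 counts in 4 week MAC-1+ replicate 1. One further sample, SS MAC-1low replicate 2, held 1 count, and the other 12 samples were at 0. Against the floor it was at least 30.5-fold higher in MAC-1low and at least 18.9-fold higher in MAC-1+ than MAC-1- HSCs at 4 weeks, where it was not seen, with overlap in both (adjusted p = 0.646 and 0.372, edgeR). The first bound was 18.9-fold without MAC-1low replicate 4, and the second rests on MAC-1+ replicate 1 alone. DESeq2 gave adjusted p of 3.15e-05 and 0.000105 for these, which may be false calls at so many zeros, and limma-voom 0.387 and 0.692.

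Ccl9 was counted in 11 samples, 5 of them with 1 to 4 counts. It reached 415 and 544 counts in 4 week MAC-1+ replicates 2 and 3, or 26.1 and 21.5 CPM, but 1 count in replicate 1. Elsewhere it was high in a single sample of a population, with 550 counts in 4 week MAC-1low replicate 4 and 328 in SS MAC-1low replicate 3. The remaining samples held at most 34 counts. Against 4 week MAC-1- HSCs, with 2, 0 and 0 counts, the log2 fold change of MAC-1+ HSCs was 8.44 (SE 3.64; adjusted p = 0.325 in edgeR, 0.0298 in DESeq2 and 0.191 in limma-voom). The 2 MAC-1+ samples high in Ccl9 were also those with the highest neutrophil sums, and with replicate 1 alone the log2 fold change was 0.23. The other 2 samples with over 300 counts had neutrophil sums of 197 and 354 CPM. The part of neutrophil transcripts in these values was not tested.

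**Figure D4:**
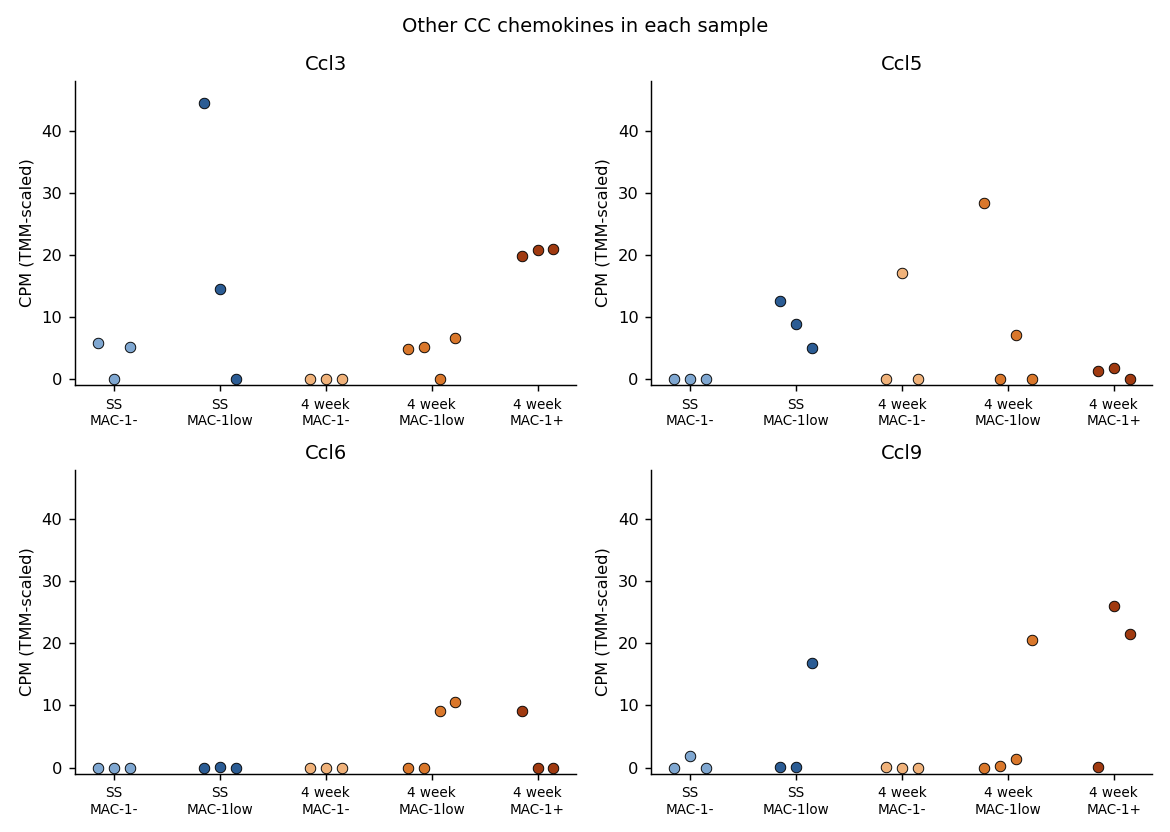
Ccl3, Ccl5, Ccl6 and Ccl9 in CPM (vertical axis, same scale in each panel) in every sample of the 5 populations (horizontal axis). Ccl3 is even among the MAC-1+ samples at 19.8 to 21 CPM and at 0 in 4 week MAC-1- HSCs, while the other 3 genes are high in some samples of a population and at or near 0 in others.

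In the remaining comparisons, of MAC-1low with MAC-1- HSCs at 4 weeks and of these populations with those of SS, 0 of the 4 members tested were called in edgeR. Between 4 week MAC-1low and MAC-1- HSCs 2 members had an unadjusted p below 0.05, as had 7.25% of all genes, and 0.278% of all genes were called. For MAC-1- HSCs at 4 weeks against SS, 2 members and 10.4% of genes had such a p and 0.432% were called. For MAC-1low HSCs at 4 weeks against SS it was 0 members and 8.89% of genes, with 0.0439% called. With SS MAC-1low as the reference for 4 week MAC-1- HSCs it was 1 member and 9.93%, with 0.505% called, and with SS MAC-1- as the reference for 4 week MAC-1low HSCs 2 members and 10.7%, with 0.19% called. DESeq2 called 2 of the 4 members in each of these comparisons but that of MAC-1low HSCs between the time points, where it called 0, and limma-voom called 0 in all of them.

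The members did not share 1 pattern over the samples. The correlation of log2 CPM over the 16 samples was 0.68 between Ccl3 and Ccl4, which were both at 20 counts or more in 10 samples, and lay between -0.13 and 0.37 for all other pairs. The samples share their populations and the genes many zeros, so these are descriptions. Among the 8019 other genes with a mean of at least 10 CPM, those most like Ccl4 were C030037D09Rik (r = 0.892), Lst1 (r = 0.885) and Zfp36l2 (r = 0.881). Lst1, a leukocyte-specific transcript, had means of 323, 379, 92.0, 201 and 309 CPM in SS MAC-1-, SS MAC-1low, 4 week MAC-1-, 4 week MAC-1low and 4 week MAC-1+ HSCs. For Ccl3 the 3 closest were Cwf19l2 (r = 0.841), Cbx6 (r = 0.838) and Ddx3y (r = 0.837), for Ccl9 Brd1 (r = 0.812), Lsp1 (r = 0.784) and Fam53c (r = 0.731), for Ccl5 Tcf3 (r = 0.733), Ddb1 (r = 0.706) and Ublcp1 (r = 0.705), and for Ccl6 Ermp1 (r = 0.723), Slc18a2 (r = 0.715) and Fam92a (r = 0.698). With 8 and 12 samples at 0, the values of Ccl5 and Ccl6 say little beyond which samples held any reads.

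Ccr1, Ccr2 and Ccr3 were scarce. Ccr1, a receptor of Ccl3, Ccl5, Ccl6 and Ccl9, exceeded 2 counts only in 4 week MAC-1+ replicate 3, with 74 counts. Ccr2, the receptor of Ccl2, had 29 counts in that same sample, which also had the highest neutrophil sum, and at most 1 elsewhere. Ccr3, a receptor of Ccl5 best known from eosinophils, reached 373 counts in 4 week MAC-1low replicate 3 and at most 5 in any other sample. Of the atypical receptors listed, Ccrl2 and Ackr1 differed from these, while Ackr2 (mean 0.0166 CPM) and Ackr4 (0 CPM) were scarce as well. Ccrl2 was counted in 16 of 16 samples, at 0.138 to 24.7 CPM with a mean of 8.18 CPM. Ackr1, which binds chemokines without signaling, had a mean of 9.97 ± 8.65 CPM (SD, n = 3) in 4 week MAC-1- HSCs, with reads in 2 of the samples. In the other populations the mean of Ackr1 was at most 0.0349 CPM.

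**Figure D5:**
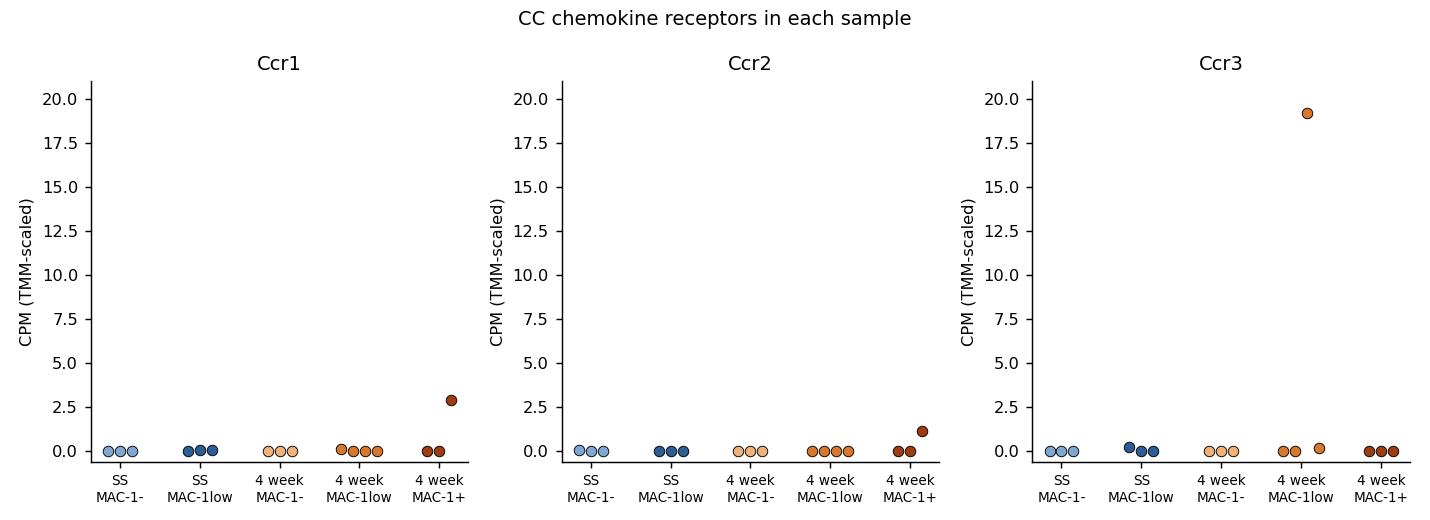
Ccr1, Ccr2 and Ccr3 in CPM (vertical axis, same scale in each panel) in every sample of the 5 populations (horizontal axis). Each receptor stands out in 1 sample, Ccr1 and Ccr2 in the same one, and is at or near 0 in all others.

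Of the 14 CC chemokine receptors listed, 0 were called in any of the 11 contrasts. Of 16 other CC chemokines, Ccl2, Ccl17, Ccl25 and Ccl27a passed it and 0 were called. For these 4 genes the log2 fold change at 4 weeks, MAC-1+ against MAC-1-, had a median of -0.41, beside 0.07 for all genes tested. Ccl17, a ligand of Ccr4, held 4.64, 3.07 and 2.66 CPM in 4 week MAC-1- HSCs and 0 in every 4 week MAC-1low and MAC-1+ sample.

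Of 17 CXC, CX3C and XC chemokines 10 were tested, and Pf4, the platelet factor of megakaryocytes, was the only one called in any contrast. Where Ccl4 was lowest, Pf4 was highest, at 6366, 4728 and 3776 CPM in 4 week MAC-1- HSCs and between 113 and 964 CPM in all other samples. At 4 weeks it was lower in MAC-1+ than MAC-1- HSCs, with a log2 fold change of -5.25 (SE 0.43; adjusted p = 4.5e-05, edgeR). Ppbp, the other platelet chemokine, had a mean of 64.3 CPM in 4 week MAC-1- and of 7.91 to 16.9 CPM in the other populations and was not called. Of 9 receptors of these chemokines 3 were tested and 0 called. Cxcr4, the receptor that holds HSCs in the marrow, had its highest mean, 176 CPM, in 4 week MAC-1+ HSCs.

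Chemokine genes are among the targets of NF-kB. Of 20 NF-kB response genes 16 were tested, and 0 were called between MAC-1+ and MAC-1- HSCs at 4 weeks, where the median of their log2 fold changes was 1.08, beside 0.07 for all genes tested. Rel, an NF-kB subunit, was the only one called in any contrast, higher in 4 week MAC-1+ than in SS MAC-1- HSCs (26.3 against 1.33 CPM; log2 fold change 4.3, SE 0.93; adjusted p = 0.0390, edgeR). The other means of Rel were 25.1 CPM in SS MAC-1low, 17.5 CPM in 4 week MAC-1- and 16.4 CPM in 4 week MAC-1low HSCs. Rel was thus low in SS MAC-1- HSCs alone, where Ccl4 was high, and did not follow Ccl4. The genes of the list summed to 237 to 317 CPM in 4 week MAC-1- HSCs and to 340 to 622 CPM in the other populations, without overlap.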

How the data were processed

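RNA of 16 samples of HSCs in 5 populations was sequenced. The authors deposited 1 table of counts, whole numbers of reads per gene and sample without normalization, made with STAR in the nf-core RNA-seq pipeline. Which program counted the reads, on which build and annotation, is not given in the sources used here. Identifiers were matched to GENCODE M21 (98.0% found) for positions, exon lengths and transcript sequences.

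Counts were analyzed in R 4.3.3 with edgeR 4.0.16 (TMM factors, default filter on low counts, robust quasi-likelihood fit of all samples with a mean per population), and a prior count of 2 went into log2 CPM. Plots were drawn with matplotlib. Folds against populations at 0 used 3 counts per sample as a floor. Scripts were tested on simulated data, where most genes called by DESeq2 had not been changed.

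The members, gene lists and tests were chosen with earlier results of these data known. Ccl4 was tested only against 4 week MAC-1+ HSCs. Fold changes are given for Ccl4 and for other members at an unadjusted p below 0.05 or without overlap. Of the chemokine, receptor and NF-kB lists, genes called and the receptors Ccr1, Ccr2 and Ccr3 are named. Other genes of these lists and all genes of the marker lists were named after their values were seen. Genes most like a member are the 3 with the highest Pearson r over all samples. Alternatives were DESeq2 1.42.0, limma-voom 3.58.1 with sample weights, DESeq2 size factors, other filters, other thresholds, only the populations compared, a covariate for the number of genes detected, a block for the replicate number, and leaving out each sample. Replicates differed far beyond counting noise (120 to 291 times as much by chi-square), so none was taken as the same library counted again. This check cannot tell separate mice from technical repeats, since amplification of RNA from few cells also adds spread. Values of 1 receptor and 1 coding sequence are not reported here.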

Additional observations from a re-analysis of the deposited data

Results flagged for a closer look

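Ccl9 in 4 week MAC-1low HSCs had 1 sample far from the other 3. Replicate 4 held 550 counts (20.6 CPM), and the others 0, 4 and 27 counts (0, 0.184 and 1.39 CPM). The gap from the highest sample to the next took up 0.933 of the range of the population, above the critical value of Dixon's test for 4 samples. The 5 members were looked at in this way in this population alone, and chance flags about 1 in 20 such groups. The same sample had the highest count of Ccl6, 280, and a neutrophil marker sum of 197 CPM, the lowest of its population.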

How the results depend on the processing

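At 4 weeks, Ccl4 in MAC-1+ against MAC-1- HSCs was called under every alternative that kept more than 1 sample per population. Its log2 fold changes ran from 2.68, with MAC-1+ replicate 1 alone, to 3.38. All alternatives reuse the 4 week MAC-1- samples, whose low values had part in choosing Ccl4. These calls are therefore not independent of that choice. The count of members called in this comparison was 1 in the edgeR analysis reported and 4 in DESeq2. It was 2 in limma-voom, without the filter on low counts, with the stricter filter and with only the populations compared, and 1 to 2 with 1 sample left out. DESeq2 also called 2 members, where edgeR called 0, in MAC-1low against MAC-1- HSCs at 4 weeks, SS MAC-1low against SS MAC-1-, 4 week MAC-1- against SS MAC-1-, 4 week MAC-1+ against SS MAC-1-, 4 week MAC-1- against SS MAC-1low and 4 week MAC-1low against SS MAC-1- HSCs, and 1 in MAC-1+ against MAC-1low HSCs at 4 weeks and in the difference between time points. Without the filter, 1 was called in 4 week MAC-1- against SS MAC-1low HSCs. DESeq2 called many unchanged genes on simulated counts, so these calls may be false, and the cause of the difference between the tools was not tested further. Over these counts, 269 alternatives left the count within 1.5 times the reported one and 17 did not. Of the fold changes of single members, 626 kept their direction and side of the threshold, 21 passed it where the reported value did not, 4 changed sign and 3 of Ccl4 that were not tested moved by more than the spread between replicates.

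The log2 fold change of Ccl4 in 4 week MAC-1+ against SS MAC-1- HSCs (0.11) ran from -0.21 to 0.31 with 1 sample left out and was -0.39 with MAC-1+ replicate 1 alone. The Ccl5 difference between time points (-9.80) ran from -11.72 to 0.01 with 1 sample left out. Samples with the same replicate number did not deviate together (r from -0.025 to 0.04 over 30 pairs, median 0.007). The labels do not say that equal numbers were sorted together. In the order of the deposited labels, some 4 week MAC-1- samples stand beside MAC-1low samples of another replicate number. A pairing by sort was therefore not tested, neither by these correlations nor by a block for the replicate number. With the replicate block, 1 member was called between MAC-1+ and MAC-1- HSCs at 4 weeks and 0 in each other contrast, as without it, and no call changed. A level under the floor of 0.112 to 0.22 CPM could not be told from 0.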
